A study of Rattus norvegicus with 12 samples.

Results

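The genes described here encode 10 regulators of G protein signalling, Rgs2, Rgs3, Rgs4, Rgs7, Rgs10, Rgs12, Rgs14, Rgs16, Rgs17 and Rgs19. They were chosen by name, with earlier results of these data known, from a count table of 28727 named genes. The table holds a further 10 genes named Rgs and a number. The RNA came from INS-1 832/13, an insulinoma line of the rat whose insulin secretion follows glucose. These cells had been transduced with an adenovirus for GFP, the control, or for mCherry-tagged mouse ChREBPβ, the constitutively active isoform of ChREBP, the glucose-responsive transcription factor of the gene Mlxipl. They were then cultured at 2 mM or 11 mM glucose, which gave 4 groups of 3 libraries, 12 in all. The time is 48 h in the series' design text, while the study's general methods for adenovirus give a longer time in glucose. All groups came from the same cell line and all received a virus, so none shows the cells without transduction. The study describes its averages as taken over independent experiments, while the labels give only the letters a, b and c, so the p-values measure the spread between these libraries, which may be technical.

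Regulators of G protein signalling (RGS proteins) bind the active, GTP-loaded α subunit of a heterotrimeric G protein and speed up its GTP hydrolysis, which shortens the signal of the receptor that activated it. In β-cells, receptors coupled to Gi and Go, such as those for noradrenaline and somatostatin, restrain insulin secretion, while receptors coupled to Gq, such as the muscarinic receptor for acetylcholine, enhance it. The family falls into subfamilies. Rgs2, Rgs3, Rgs4 and Rgs16 belong to the R4 subfamily, Rgs7 to the R7 subfamily, whose members need the atypical β subunit Gnb5, Rgs10, Rgs12 and Rgs14 to the R12 subfamily, and Rgs17 and Rgs19 to the RZ subfamily. Rgs16 is known in liver as a gene that responds to glucose together with ChREBP, and in pancreas it is known from development and from diabetes.

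ChREBP binds DNA with its partner Mlx at the carbohydrate response element (ChoRE), a pair of E-boxes set 5 bases apart. The promoter windows of the RGS genes were therefore read from RefSeq (GRCr8 assembly, 250 bases before to 50 after the start of the gene). They were searched on both strands for the E-box CACGTG, for the pair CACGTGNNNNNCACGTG with at most 2 mismatches in its 12 fixed letters, and for the cAMP response element TGACGTCA. A pair that holds an exact E-box is also counted as an E-box. An E-box is held by 6.42% of the 33469 windows of this length, a ChoRE-like pair by 0.953% and a cAMP response element by 1.83%. Windows were found for 10 of the 10 genes. The window of Rgs16 held a ChoRE-like pair with 2 mismatches, whose first base is at position -12 from the start. The windows of Rgs7 and Rgs19 held an E-box, at positions -95 and -227, and the windows of the other 7 genes held none of the 3 motifs. A match of letters is a description, not a binding site. The window of Rgs16 is shown for its ChoRE-like pair beside that of Pklr, a well-studied ChREBP target whose window also held a pair with 2 mismatches, and those of Rgs7 and Rgs19 are shown for their E-boxes. Each is written 5′ to 3′ on the strand of the gene, with the match in capitals.
Rgs16 promoter, GRCr8 chr13:68437870-68438169, plus strand: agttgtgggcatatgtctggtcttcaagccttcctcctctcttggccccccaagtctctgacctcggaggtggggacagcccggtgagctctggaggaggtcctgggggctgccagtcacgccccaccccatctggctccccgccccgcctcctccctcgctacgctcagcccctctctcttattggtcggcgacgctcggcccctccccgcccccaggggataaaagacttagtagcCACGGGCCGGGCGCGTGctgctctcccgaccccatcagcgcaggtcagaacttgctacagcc
Pklr promoter, GRCr8 chr2:176841014-176841313, plus strand: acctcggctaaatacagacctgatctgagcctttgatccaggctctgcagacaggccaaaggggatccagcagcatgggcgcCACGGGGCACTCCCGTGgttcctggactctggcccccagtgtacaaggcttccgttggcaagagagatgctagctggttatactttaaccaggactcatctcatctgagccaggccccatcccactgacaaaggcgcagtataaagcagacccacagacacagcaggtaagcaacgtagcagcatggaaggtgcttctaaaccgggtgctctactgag
Rgs7 promoter, GRCr8 chr13:89941001-89941300, minus strand: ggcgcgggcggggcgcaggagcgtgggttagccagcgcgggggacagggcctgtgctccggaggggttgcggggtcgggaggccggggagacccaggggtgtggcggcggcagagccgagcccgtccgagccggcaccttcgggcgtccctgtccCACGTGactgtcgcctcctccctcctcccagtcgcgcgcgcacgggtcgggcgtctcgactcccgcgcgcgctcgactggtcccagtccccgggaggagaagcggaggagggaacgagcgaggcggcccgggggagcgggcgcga
Rgs19 promoter, GRCr8 chr3:189187238-189187537, minus strand: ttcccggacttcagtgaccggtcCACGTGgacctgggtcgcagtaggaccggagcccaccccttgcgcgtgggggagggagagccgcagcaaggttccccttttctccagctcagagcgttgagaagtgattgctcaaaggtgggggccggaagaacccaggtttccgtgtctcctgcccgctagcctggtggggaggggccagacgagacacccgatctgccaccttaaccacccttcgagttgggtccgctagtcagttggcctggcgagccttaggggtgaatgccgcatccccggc

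Between 25754488 and 60531215 reads were counted on named genes per library. The GFP libraries held 25754488 to 46654823 and the ChREBPβ libraries 28595982 to 60531215. Raw counts alone therefore do not compare the viruses. Levels are given as TMM-scaled CPM, that is, counts brought to a common library size with edgeR's TMM factors. They are not divided by transcript length, so they compare groups for a gene and not genes with each other. The label of the virus was checked with Mlxipl. Its rat count did not rise, with 256 ± 18.8 CPM in the GFP group and 205 ± 6.63 CPM in the group labelled ChREBPβ at 2 mM (SD, n = 3), and 207 ± 5.32 and 188 ± 11.0 CPM at 11 mM. Mlxipl was lower by 0.33 on the log2 scale at 2 mM (edgeR adjusted p = 2.03e-05). At 11 mM it was lower by 0.14, under the minimum of 1.2-fold. A separate entry named ChREBPb was higher with the virus by 0.21 on the log2 scale at 2 mM, under the minimum of 1.2-fold, and by 0.37 at 11 mM. The virus carries a mouse sequence, and what the second entry counts is not given in the sources used here, so the groups are called by their labels throughout. The summed level of 10 β-cell markers lay between 15532 and 17447 CPM with GFP at 2 mM, 11701 and 12724 with GFP at 11 mM, 6324 and 6443 with ChREBPβ at 2 mM, and 5290 and 5625 with ChREBPβ at 11 mM, with G6pc2 at or under 3 counts in every library. Ins1 had the highest level of these markers, and they were not followed singly, so the sum does not show that each of them fell. The summed level of 7 markers of other islet cells lay between 1591 and 1721 CPM in the GFP libraries. In the ChREBPβ libraries it lay between 431 and 503 CPM. Gcg had the highest level of these 7, and Sst and Irx2 were at or under 3 counts in every library. Summed markers of exocrine and duct cells reached at most 0.107 CPM in any library, those of immune cells 1.32 CPM, those of endothelium and pericytes 2.63 CPM and those of fibroblasts 8.81 CPM, with Ptprc, Col3a1, Dcn and Lum at or under 3 counts in every library. The part of these markers in the results that follow was not tested, and in bulk RNA fewer cells of a type and less RNA per cell cannot be told apart.

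To ask how ChREBPβ and glucose moved the RGS genes, the 4 groups were compared by quasi-likelihood F tests in edgeR, run on 14669 genes left by its filter on low counts. A gene was called higher or lower when its p, adjusted by Benjamini-Hochberg, was under 0.05 and it changed by 1.2-fold or more. With ChREBPβ at 2 mM glucose, 4 RGS genes rose (Rgs16, Rgs10, Rgs17 and Rgs14) and 2 fell (Rgs12 and Rgs3), while Rgs2, Rgs7 and Rgs19 were not called and Rgs4 was too low to test. At 11 mM glucose the same 4 rose, and Rgs12, Rgs3 and Rgs2 fell. These counts are read against the background of all tested genes, of which 21.0% were higher and 23.2% lower with ChREBPβ at 2 mM, and 14.3% were higher and 19.1% lower at 11 mM. This split depended on the scaling, with 3075 genes higher and 3401 lower at 2 mM under TMM against 2196 and 4421 under library totals, and 2102 and 2802 against 1532 and 3698 at 11 mM, while under either scaling 4 RGS genes were higher and 2 lower at 2 mM, with 4 and 3 at 11 mM. The median log2 fold change of the 9 tested RGS genes was 0.19 at 2 mM and 0.23 at 11 mM, beside -0.02 over all tested genes at either glucose concentration. The ChREBPβ comparisons at 2 and 11 mM share no libraries, though the fit pools their spread, and the 6 genes called at 2 mM were called in the same direction at 11 mM. How many of all called genes did the same is not given here, so this repeat is not read as particular to the RGS genes. In RefSeq, none of the 10 RGS genes described here overlaps a gene named in the count table. Genes were matched by name only, since RefSeq was read on another assembly than the counts. Rgs3, Rgs7, Rgs10 and Rgs12 overlap RefSeq entries whose names the count table lacks, and the part of these in the counts was not tested.

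**Figure D1:**
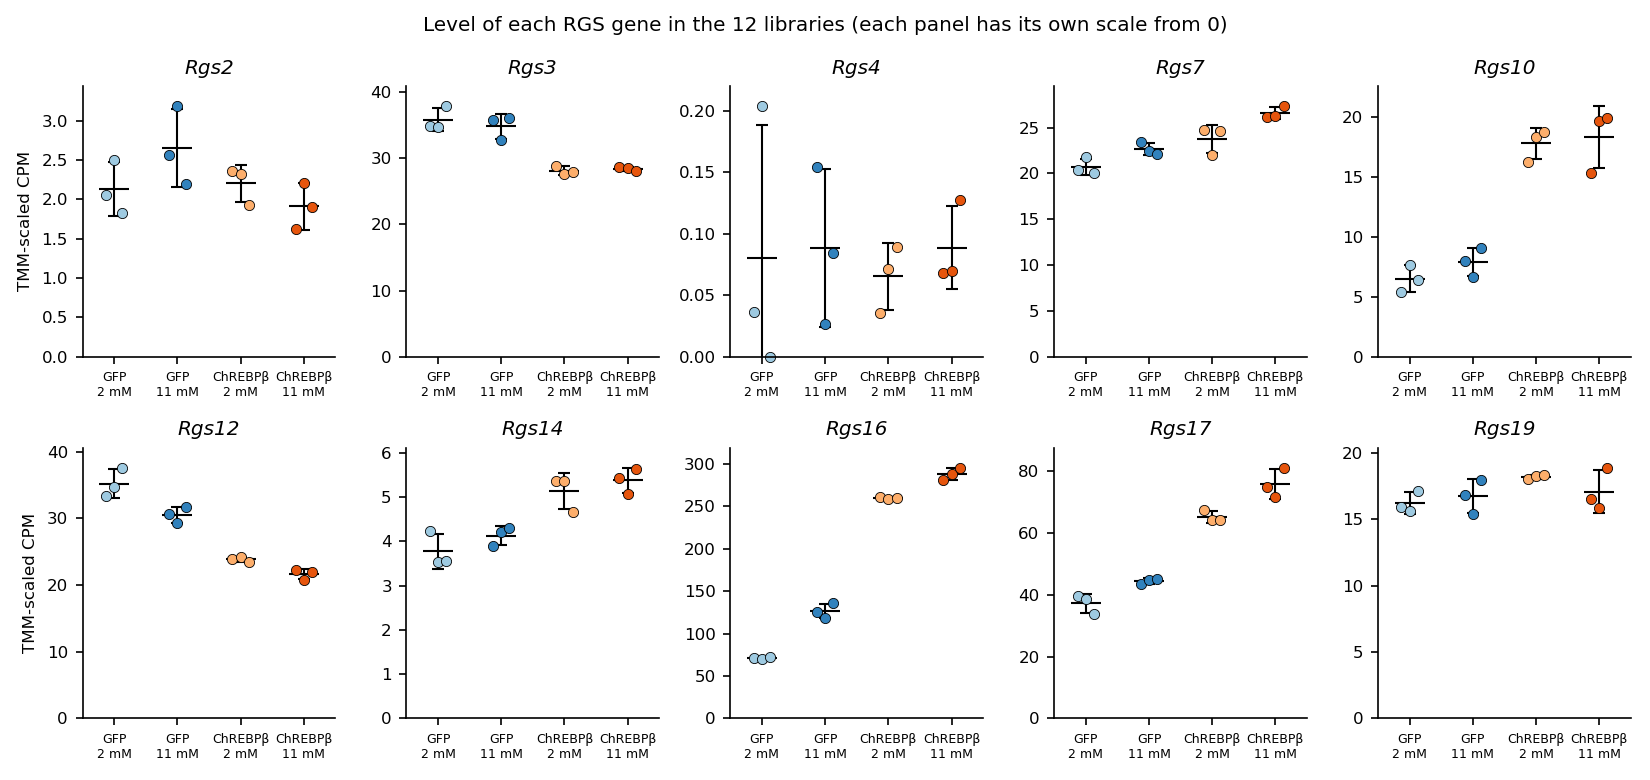
TMM-scaled CPM of the 10 RGS genes in the 12 libraries, with a panel for each gene on its own scale from 0, a point for each library and bars for the mean ± SD of each group (n = 3). The ChREBPβ libraries of Rgs16, Rgs10, Rgs17 and Rgs14 lie above all GFP libraries, those of Rgs12 and Rgs3 lie below them, and Rgs4 stays at or under 0.204 CPM.

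The plot of levels by library shows the spread behind these calls. For Rgs16, Rgs17, Rgs12 and Rgs3 the groups of 3 libraries were tight, whereas for Rgs2 and Rgs4 the spread within a group was as wide as the distance between groups.

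Rgs16, the R4 member that acts on Gi and Gq α subunits, had the largest increase of the 9 tested RGS genes at 2 mM. Its level was 70.8, 70.1 and 72.2 CPM in the GFP libraries at 2 mM and 126, 119 and 136 CPM in those at 11 mM. In the ChREBPβ libraries it was 261, 259 and 259 CPM at 2 mM and 282, 288 and 296 CPM at 11 mM. No group overlapped another, and the order from low to high was GFP at 2 mM, GFP at 11 mM, ChREBPβ at 2 mM and ChREBPβ at 11 mM. ChREBPβ raised Rgs16 by 3.66-fold at 2 mM (log2 fold change 1.87, SE 0.05, edgeR adjusted p = 1.9e-17), which placed it at rank 319 of the 14669 genes, and by 2.27-fold at 11 mM (1.19, SE 0.04, edgeR adjusted p = 2.19e-14), at rank 448. ChREBPβ at 2 mM glucose thus held Rgs16 at a higher level than 11 mM glucose did with GFP.

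The other R4 genes went down or were low. Rgs3, which acts on Gi and Gq α subunits and can also bind βγ dimers, was at 34.9, 34.7 and 37.9 CPM in GFP cells and 28.9, 27.6 and 27.9 CPM in ChREBPβ cells at 2 mM, and at 35.8, 32.7 and 36.0 against 28.6, 28.5 and 28.1 CPM at 11 mM. All 6 ChREBPβ libraries lay below all 6 GFP libraries, and the 2 glucose concentrations overlapped for either virus. Rgs3 fell by 0.35 on the log2 scale at 2 mM (SE 0.06, edgeR adjusted p = 2.02e-05) and by 0.30 at 11 mM (SE 0.05, edgeR adjusted p = 0.000131).

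Rgs2, a regulator that prefers Gq, gave between 56 and 130 counts per library. It was at 2.06, 2.51 and 1.83 CPM in GFP cells and 2.36, 2.32 and 1.93 CPM in ChREBPβ cells at 2 mM, and at 2.57, 3.19 and 2.20 against 1.62, 2.21 and 1.90 CPM at 11 mM. The groups overlapped at both glucose concentrations. Its log2 fold change was 0.03 at 2 mM (SE 0.19, edgeR adjusted p = 0.896), a value that lay between -0.07 and 0.04 over the other scalings and settings. At 11 mM it was lower by 0.46 on the log2 scale, a log2 fold change of -0.46 (SE 0.18, edgeR adjusted p = 0.0386). This call was lost in the fit of the compared groups alone (edgeR adjusted p = 0.0581) and without GFP 11 mM a (adjusted p = 0.0637), GFP 11 mM b (0.192), ChREBPβ 11 mM a (0.146) or ChREBPβ 11 mM c (0.078), with values from -0.58 to -0.32 over all libraries left out.

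Rgs4, which is known to limit muscarinic signalling in β-cells, gave 0 to 7 counts per library and at most 0.204 CPM. It was at 0 in 1 library and over 3 counts in 8, and it did not pass the filter on low counts, so a difference between groups was not detectable at this depth. On the chromosome its neighbour is Rgs5, which gave at most 1 count. The neighbour of Rgs16 is Rgs8, which gave 0 to 8 counts, and Rgs2 stands in a row with Rgs13, Rgs1, Rgs21 and Rgs18, none of which passed the filter, in the RefSeq gene order. Thus in each of these clusters of R4 genes at most 1 gene was measured above the filter.

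Of the R12 genes, Rgs10 and Rgs14 rose and Rgs12 fell. Rgs10, a short protein that acts on Gi α subunits, was at 5.40, 7.64 and 6.41 CPM in GFP cells and 16.3, 18.3 and 18.7 CPM in ChREBPβ cells at 2 mM. At 11 mM it was at 7.98, 6.67 and 9.03 CPM in GFP cells and 15.3, 19.7 and 19.9 CPM in ChREBPβ cells. The ChREBPβ libraries all lay above the GFP libraries, and the 2 glucose concentrations overlapped within each virus. ChREBPβ raised Rgs10 by 2.73-fold at 2 mM (log2 fold change 1.45, SE 0.13, edgeR adjusted p = 8.62e-09) and by 2.30-fold at 11 mM (1.204, SE 0.12, edgeR adjusted p = 5.58e-08). At 11 mM Rgs10 and Rgs16 thus had nearly the same log2 fold change, at ranks 439 and 448 of 14669.

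Rgs14, a scaffold that joins a Gi-binding GoLoco motif to Ras-binding domains, rose less, at 4.23, 3.53 and 3.56 against 5.37, 5.36 and 4.66 CPM at 2 mM and at 3.89, 4.20 and 4.29 against 5.44, 5.07 and 5.63 CPM at 11 mM. The GFP and ChREBPβ libraries did not overlap, with the highest GFP library at 4.29 CPM and the lowest ChREBPβ library at 4.66 CPM. Its log2 fold change was 0.44 at 2 mM (SE 0.12, edgeR adjusted p = 0.00365) and 0.38 at 11 mM (SE 0.11, edgeR adjusted p = 0.00768).

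Rgs12, the largest protein of the subfamily, with the same GoLoco and Ras-binding parts as Rgs14, went the other way. It was at 33.3, 34.8 and 37.6 CPM in GFP cells and 23.8, 24.2 and 23.5 CPM in ChREBPβ cells at 2 mM, and at 30.6, 29.2 and 31.7 against 22.3, 20.8 and 22.0 CPM at 11 mM. The 4 groups did not overlap, and the order from high to low was GFP at 2 mM, GFP at 11 mM, ChREBPβ at 2 mM and ChREBPβ at 11 mM, the reverse of the order for Rgs16. The ChREBPβ groups, next to each other in this order, differed by a log2 fold change of -0.14 that was not called (edgeR adjusted p = 0.176). Rgs12 fell by 0.56 on the log2 scale at 2 mM (SE 0.06, edgeR adjusted p = 7.97e-08) and by 0.49 at 11 mM (SE 0.06, edgeR adjusted p = 5.43e-07).

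Of the RZ genes, Rgs17 rose and Rgs19 was not called. Rgs17, which acts on Gi and Gz α subunits, was at 39.4, 38.5 and 33.7 CPM in GFP cells and 67.5, 64.0 and 64.2 CPM in ChREBPβ cells at 2 mM. At 11 mM it was at 43.3, 44.7 and 45.0 CPM in GFP cells and 74.8, 71.6 and 81.1 CPM in ChREBPβ cells. The 4 groups did not overlap and followed the same order as Rgs16, with the step between viruses wider than the step between glucose concentrations. ChREBPβ raised Rgs17 by 1.75-fold at 2 mM (log2 fold change 0.81, SE 0.06, edgeR adjusted p = 5.4e-10) and by 1.71-fold at 11 mM (0.77, SE 0.06, edgeR adjusted p = 7.89e-10).

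Rgs19, first described as a protein that interacts with Gi3, was at 15.6 to 17.1 CPM in GFP cells and 18.01 to 18.3 CPM in ChREBPβ cells at 2 mM, and at 15.4 to 17.95 against 15.8 to 18.9 CPM at 11 mM. The libraries at 11 mM overlapped. Its log2 fold change was 0.17 at 2 mM (SE 0.08, edgeR adjusted p = 0.0712) and 0.03 at 11 mM (SE 0.07, edgeR adjusted p = 0.79), and the value at 11 mM turned to -0.06 when counts were scaled by library totals alone.

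Rgs7, the R7 member of the set, was at 20.4, 21.7 and 20.1 CPM in GFP cells and 24.7, 22.0 and 24.6 CPM in ChREBPβ cells at 2 mM, and at 23.4, 22.5 and 22.1 against 26.2, 26.3 and 27.4 CPM at 11 mM. The ChREBPβ libraries lay above the GFP libraries at either glucose concentration, at 2 mM by a narrow margin. Its log2 fold change was 0.19 at 2 mM (SE 0.06, edgeR adjusted p = 0.0122) and 0.23 at 11 mM (SE 0.06, edgeR adjusted p = 0.00291), which passed on p and stayed under the minimum of 1.2-fold.

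**Figure D2:**
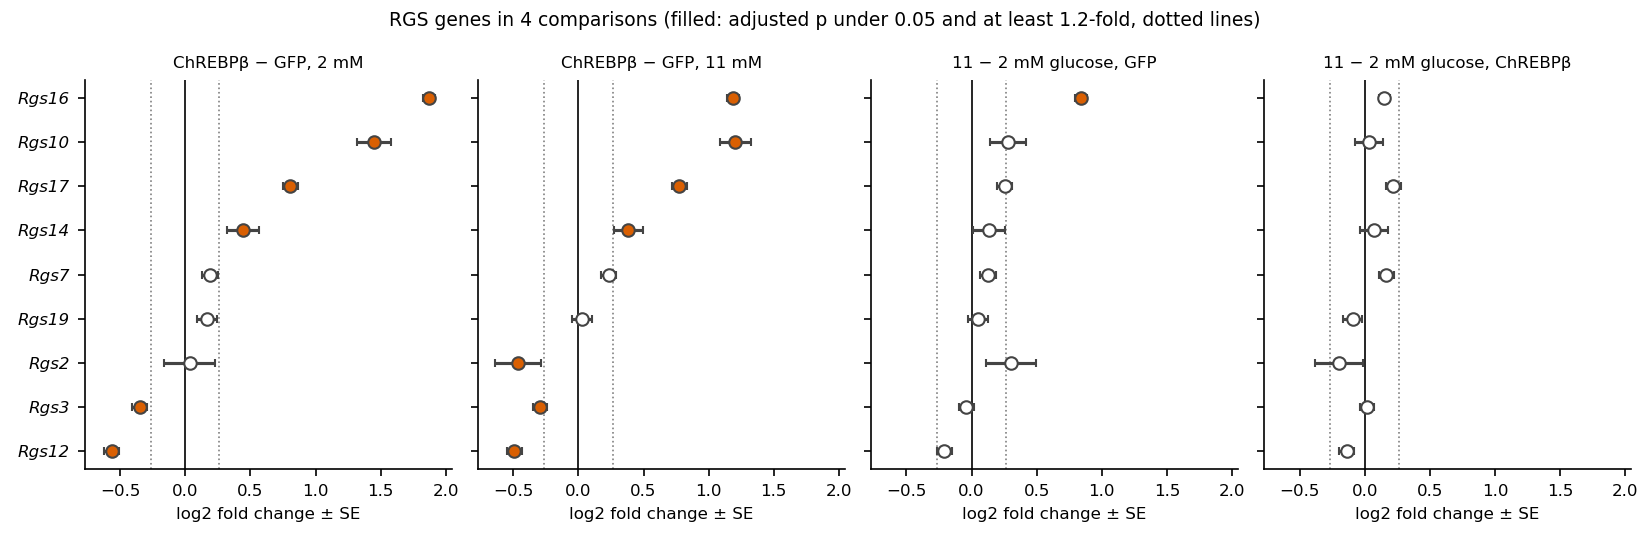
Log2 fold change ± SE of the 9 tested RGS genes in 4 comparisons, with filled points for genes past the adjusted p of 0.05 and the minimum of 1.2-fold (dotted lines). Rgs16 reaches 1.87 with ChREBPβ at 2 mM and 0.84 with glucose and GFP, and no point is filled for glucose with ChREBPβ.

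The plot of log2 fold changes sets the comparisons side by side. The ChREBPβ comparison and the glucose comparison with GFP share the GFP libraries at 2 mM, and all comparisons in the plot share libraries with others, so their likeness is not tested. Between 2 and 11 mM glucose in cells with GFP, Rgs16 was the only RGS gene called, while 10.2% of all tested genes were higher and 10.0% lower. It rose by 1.79-fold (log2 fold change 0.84, SE 0.05, edgeR adjusted p = 8.32e-11). Rgs17 (log2 fold change 0.25, SE 0.06, edgeR adjusted p = 0.00274) and Rgs12 (-0.21, SE 0.06, edgeR adjusted p = 0.00834) passed on p and stayed under the minimum of 1.2-fold. Rgs10 had a log2 fold change of 0.28 (SE 0.14, edgeR adjusted p = 0.127). The count of RGS genes called in this comparison was 2 without GFP 2 mM a, where Rgs17 passed at 0.30, and 3 without GFP 2 mM b, where Rgs10 passed at 0.42 and Rgs17 at 0.28. It was 2 without GFP 11 mM a, where Rgs17 passed at 0.27, and 2 without GFP 11 mM b, where Rgs10 passed at 0.38.

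In cells with ChREBPβ, 0 of the 9 tested RGS genes were called between 2 and 11 mM glucose by edgeR's quasi-likelihood test, and 0 by DESeq2. Of all tested genes 0.988% were called higher and 2.88% lower in edgeR. Without adjustment, 4 RGS genes had a p under 0.05 in edgeR. The share of all tested genes under that threshold is not given here, so the 4 are not read as a response of the set. Rgs17 had a log2 fold change of 0.22 (SE 0.06, edgeR adjusted p = 0.0197) and Rgs16 of 0.15 (SE 0.04, edgeR adjusted p = 0.0376), and both stayed under the minimum of 1.2-fold. Rgs12 and Rgs7 were the other genes with an unadjusted p under 0.05, at log2 fold changes of -0.14 and 0.17.

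To ask whether the effect of ChREBPβ differed between the glucose concentrations, the difference of both effects was tested as an interaction. It was called for Rgs16 alone among the RGS genes, beside 6.31% of all tested genes. The log2 effect of ChREBPβ on Rgs16 was smaller by 0.69 at 11 mM than at 2 mM, an interaction of -0.69 (SE 0.06, edgeR adjusted p = 4.84e-07). On the linear scale ChREBPβ added 188.7 CPM at 2 mM (SE 0.802, n = 3) and 161.8 CPM at 11 mM (SE 6.42), and glucose added 55.8 CPM with GFP (SE 4.94) and 28.9 CPM with ChREBPβ (SE 4.18). The difference thus had the same direction on both scales, and on the linear scale it was not tested. For Rgs10 and Rgs17 the interaction was -0.25 (SE 0.18, edgeR adjusted p = 0.475) and -0.03 (SE 0.08, edgeR adjusted p = 0.87). For Rgs2 it was -0.50 (SE 0.26, edgeR adjusted p = 0.298), so the call of Rgs2 at 11 mM and its absence at 2 mM are not shown to differ.

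**Figure D3:**
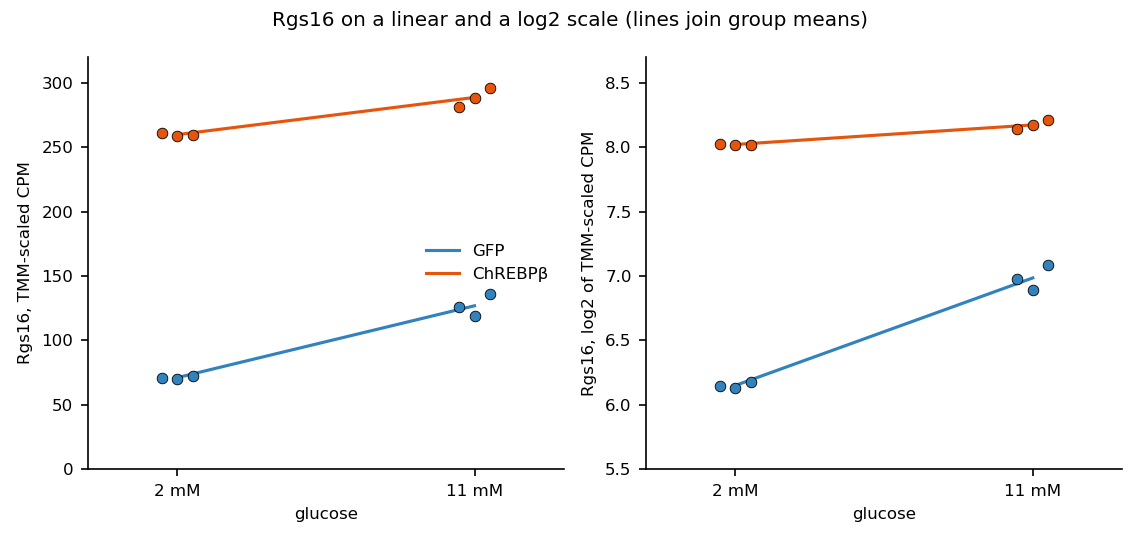
Rgs16 in each library against the glucose concentration, as TMM-scaled CPM (left, from 0) and as log2 of it (right, axis from 5.5), with lines joining the group means (n = 3). With ChREBPβ the mean goes from 260 to 289 CPM, and with GFP it goes from 71.0 to 127 CPM, so the lines come closer at 11 mM on both scales.

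Of the further 10 genes named Rgs and a number, 4 passed the filter, and 6 (Rgs1, Rgs5, Rgs8, Rgs13, Rgs18 and Rgs21) gave at most 8 counts in any library, with Rgs1 and Rgs18 at 0 in the 12 libraries. Rgs9, the R7 member of photoreceptors and striatum, was at 153 to 169 CPM in GFP cells and 78.6 to 82.9 CPM in ChREBPβ cells at 2 mM, and at 130 to 139 against 64.3 to 71.1 CPM at 11 mM. The 4 groups did not overlap, and Rgs9 fell by 0.99 on the log2 scale at 2 mM (SE 0.05, edgeR adjusted p = 1.51e-12) and by 1.00 at 11 mM (SE 0.05, edgeR adjusted p = 1.71e-12). Rgs22, a large and atypical family member, rose by 0.90 on the log2 scale at 2 mM (SE 0.07, edgeR adjusted p = 9.76e-10) and by 1.02 at 11 mM (SE 0.07, edgeR adjusted p = 1.28e-10), from 20.4 to 23.5 CPM with GFP to 41.9 to 42.3 CPM with ChREBPβ at 2 mM. Rgs20, an RZ member, had log2 fold changes of -0.35 (SE 0.13, edgeR adjusted p = 0.0227) and -0.60 (SE 0.12, edgeR adjusted p = 0.000333), and is uncertain because it overlaps Atp6v1h and the strand of counting is not given in the sources used here. Rgs6, an R7 member at 2 to 12 counts per library, had log2 fold changes of -1.78 at 2 mM (SE 0.52, edgeR adjusted p = 0.00646) and -0.53 at 11 mM (SE 0.51, edgeR adjusted p = 0.415). The R7 genes thus did not share a direction, since Rgs9 fell while Rgs7 had positive values under the minimum fold change.

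The substrates and partners of the RGS proteins were described by 4 lists, whose counts stand beside 21.0% of all tested genes higher and 23.2% lower for ChREBPβ against GFP at 2 mM, with 14.3% and 19.1% at 11 mM. Of 16 Gα genes 13 were tested, of which 4 were higher and 4 lower with ChREBPβ at 2 mM and 4 higher and 2 lower at 11 mM, with median log2 fold changes of -0.13 and -0.10. Gna15, the α subunit that couples widely to receptors of blood cells, gave at most 1 count in the GFP libraries at 2 mM and 28, 110 and 81 counts in the ChREBPβ libraries, a level at least 15-fold higher against a floor of 3 counts per library. At 11 mM it was at 0.139 ± 0.097 CPM in GFP cells and 2.01 ± 0.267 CPM in ChREBPβ cells (SD, n = 3). Gnai1, a Gi subunit and a substrate of most RGS proteins, fell by 0.65 on the log2 scale at 2 mM and by 0.51 at 11 mM. Gna12 rose by 0.61 and 0.49.

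Of 17 Gβ and Gγ genes 12 were tested, and 1 was higher and 4 lower at either glucose concentration, with medians of -0.19 and -0.16. Gng8 was the gene that rose, by 1.95 on the log2 scale at 2 mM and 2.22 at 11 mM, from 0.496 ± 0.147 to 1.86 ± 0.347 CPM at 2 mM (SD, n = 3). Gng4 fell by 0.58 and 0.42 on the log2 scale, and Gng2 by 0.50 and 0.31. Gnb5, the partner without which R7 proteins are unstable, was at 16.5 ± 0.847 CPM in GFP cells and 13.4 ± 1.19 CPM in ChREBPβ cells at 2 mM, and it fell by 0.28 (edgeR adjusted p = 0.006) and, at 11 mM, by 0.40 (edgeR adjusted p = 0.000284) on the log2 scale.

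Of 20 listed partners of RGS proteins and other modulators of Gα 17 were tested, and 2 were higher and 5 lower at either glucose concentration, with medians of -0.20 and -0.11. Gpr179, an orphan receptor that binds R7 proteins in the retina, was at 4.23, 3.91 and 3.30 CPM in GFP cells and 14.8, 17.98 and 18.1 CPM in ChREBPβ cells at 2 mM, and at 9.14, 9.59 and 9.56 against 19.5, 19.2 and 18.6 CPM at 11 mM. No library of a group with ChREBPβ overlapped one with GFP. Gpr179 rose by 2.17 on the log2 scale with ChREBPβ at 2 mM, by 1.02 at 11 mM and by 1.31 with glucose in GFP cells, and its interaction was -1.15 (edgeR adjusted p = 9.83e-06). Gpr158, the related receptor that binds Rgs7, fell by 0.96 and 0.74 on the log2 scale with ChREBPβ. Axin2, which has an RGS-like domain and acts in Wnt signalling, fell by 0.52 and 0.57. Rgs7bp, the membrane anchor of R7 proteins, had log2 fold changes of -0.26 (edgeR adjusted p = 0.552) and -0.74 (edgeR adjusted p = 0.0527) at 12 to 37 counts per library.

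Of 9 listed receptor kinases and arrestins, the proteins that desensitize receptors upstream of the G protein, 7 were tested, and 2 were higher and 1 lower at either glucose concentration, with medians of 0.06 at 2 mM and 0.00318 at 11 mM. Arrb1 rose by 0.83 on the log2 scale at 2 mM and 0.61 at 11 mM, Grk6 rose by 0.50 and 0.42, and Grk5 fell by 0.69 and 0.73. With 7 to 17 tested genes each, the counts of the 4 lists are not read as differing from those shares of all genes. With glucose in GFP cells 1 Gα gene was higher and 0 lower, 0 and 1 of the Gβ and Gγ genes, 1 and 4 of the partners, and 1 and 0 of the kinases and arrestins, beside 10.2% of all tested genes higher and 10.0% lower.

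**Figure D4:**
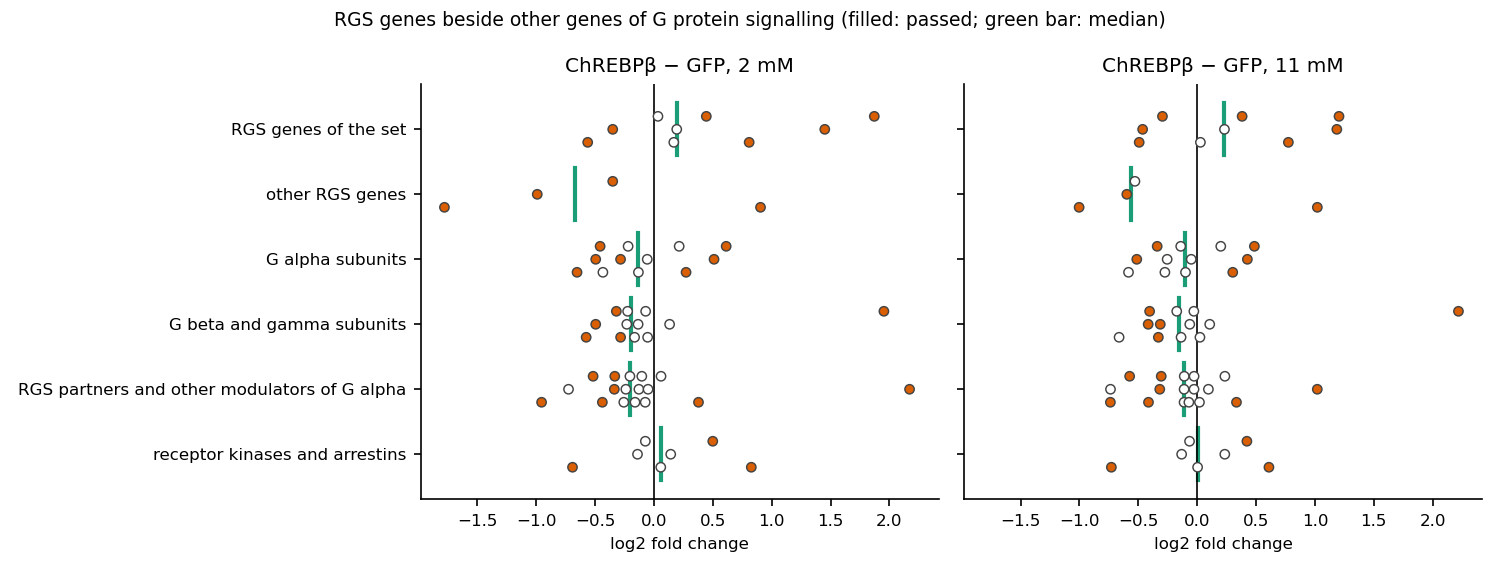
Log2 fold change with ChREBPβ at 2 mM (left) and 11 mM (right) of the tested RGS genes, the other RGS genes and 4 lists of G protein signalling, with a point for each gene, filled where it was called, and a green bar at the median of each list. Gna15 is not drawn and counts in its list's median. The medians of the RGS genes described here, which were chosen with earlier results known, are 0.19 and 0.23. Those of the Gα, Gβγ and partner lists lie between -0.20 and -0.10, and those of the kinases and arrestins are 0.06 and 0.00318. Of the other RGS genes, Rgs22 lies above 0 and Rgs6, Rgs9 and Rgs20 lie below it in both panels.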

How the data were processed

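RNA of 12 libraries was amplified and sequenced in paired-end reads by the authors, who deposited raw read counts per gene (build Rnor 6.0 and edgeR, per the submitters' processing notes). The aligner, counter and strand setting are not given in the sources used here. The authors also deposited the mean signal of each group, which equals the mean of its 3 counts in 28728 of 28728 entries (tolerance 0.001) and was not used further. An entry without a gene name, at most 0.00601% of a library, was left out.

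Counts were analysed with R 4.3.3, edgeR 4.0.16 (filterByExpr, TMM, a quasi-likelihood fit of all 12 libraries by group, Benjamini-Hochberg adjustment over 14669 genes) and DESeq2 1.42.0 as an alternative. The fit was tested on simulated counts with 200 genes changed in the ChREBPβ group at 2 mM. It recovered 94 of 100 genes changed by 2-fold, with 6 false calls. Far more genes were called in the data, so this run does not test the scaling. Promoter motifs were counted with Python 3.11.15. Amplified reads are not independent molecules, so the floor of 3 counts covers counting error only. Library pairs within groups differed beyond sampling noise (chi-square per degree of freedom 3.06 to 16.6). Named are the 10 RGS genes, other tested Rgs genes, Gnb5, and from each list the 3 called genes with the largest change. Rgs7bp, Mlxipl, ChREBPb, Txnip and Pklr were added after values were seen. The members and lists were chosen with earlier results of these data known. Alternatives were DESeq2, 3 other scalings, 2 other filters, a replicate block, fits of 2 groups, other minimum folds and leaving out each library.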

Additional observations from a re-analysis of the deposited data

Results flagged for a closer look

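The effect of ChREBPβ on Rgs16 differed between the glucose concentrations in a direct test of the difference. ChREBPβ gave a log2 fold change of 1.87 at 2 mM and of 1.19 at 11 mM, and the interaction was -0.69 (SE 0.06, edgeR adjusted p = 4.84e-07). It lay between -0.73 and -0.63 when each library was left out in turn and between -0.69 and -0.66 under the other scalings, filters and tools. Of all tested genes 925, or 6.31%, passed the same test, 229 with a positive and 696 with a negative interaction. Among them were the ChREBP targets Txnip (-3.20, edgeR adjusted p = 7.35e-17) and Pklr (-0.61, edgeR adjusted p = 4.58e-06). A negative interaction is thus not particular to Rgs16.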

How the results depend on the processing

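Of 891 values of single RGS genes under other settings, 861 kept their direction and call, 5 lost a call, 6 gained a call and 19 changed sign, all 19 of them values that were not called. The 891 include runs without a library from outside the compared groups, where a value could hardly move, so the 861 do not measure robustness. The calls lost were all of Rgs2 at 11 mM (-0.46 in the fit of 2 groups). Those gained were of Rgs10 (0.28 with no filter on low counts) and Rgs17 with glucose in GFP cells. Rgs2 at 2 mM was -0.0248 with upper quartile factors, -0.0657 with library totals and from -0.069 to 0.177 with a library left out. Rgs19 at 11 mM was -0.0055, -0.0565 and from -0.0508 to 0.082. With a library left out, Rgs3 reached -0.0617 to 0.0053 and Rgs19 -0.0059 to 0.103 (glucose with GFP), Rgs10 -0.0296 to 0.148 (glucose with ChREBPβ), Rgs7 -0.0181 to 0.0653 and Rgs17 -0.0864 to 0.0313 (interaction).

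With a minimum of 2-fold, 1456, 992, 294, 28 and 108 genes and 2, 2, 0, 0 and 0 RGS genes were called for ChREBPβ at 2 and 11 mM, glucose with GFP, glucose with ChREBPβ and the interaction. With no minimum, glucose gave 5030 genes and 3 RGS genes with GFP, and 1100 and 2 with ChREBPβ. For glucose with GFP, 2 RGS genes were called with no filter and 1 to 3 with a library left out. Beyond the minimum fold itself, the cause of these shifts was not tested. Library totals moved the median of all genes from -0.02 to -0.12 at 2 mM and to -0.10 at 11 mM. Rgs16 relative to that median was 1.89 at 2 mM under either scaling. A change of scaling shifts all genes nearly alike, so this value could hardly move and is no check of Rgs16.

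Same-letter libraries had correlations of -0.11 to 0.05, 0 of 12 over 0.1, so no strong effect shared by a letter was seen. The labels do not say what the letters mean, so these correlations cannot decide whether they pair samples. With a replicate block 6, 7, 1, 0 and 1 RGS genes were called, and it changed no call. Levels per length were not run, since transcript lengths were not used here. Depth limits Rgs4 and Rgs6, and weakly Rgs2.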
